A study of Mus musculus with 12 samples.

Results

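The brain receptors for GABA, glutamate, acetylcholine and serotonin were followed as 67 genes, chosen by symbol and by a mean of at least 1 CPM over all libraries, where 1 CPM is 1 read in 1000000 reads assigned to genes. The symbol patterns matched 78 of the 21983 genes in the count table, and 67 of these reached that mean. The nicotinic subunit genes Chrna2 (1.27 CPM) and the NMDA subunit gene Grin3b (1.39 CPM) lay just inside it, and Chrna1 (0.837 CPM) and Chrna10 (0.746 CPM) just outside. The 67 genes fell into 10 families: 13 of the GABA-A type, 2 GABA-B, 4 AMPA, 5 kainate, 7 NMDA, 2 delta, 7 metabotropic glutamate, 10 nicotinic, 5 muscarinic and 12 serotonin. All 67 passed the filter on low counts and were tested. The patterns ask for a digit after the subunit letter and so leave out the GABA-A subunit genes Gabrd, Gabre, Gabrq and Gabrp.

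RNA-seq was run on brain tissue of wild-type C57BL/6 mice aged 6 weeks, in 3 groups of 4 libraries numbered 1 to 4: mice with experimental cerebral malaria (ECM) treated for 4 days with artesunate, an antimalarial drug (treated ECM), mice with ECM, and control mice described as normal. ECM is a rodent model of the brain complication of malaria. The parasite, the day of sampling after infection and whether each library is 1 animal are not given in the labels, so p-values measure the spread between these libraries, which may be partly technical. Treated ECM and ECM may differ in time since infection as well as in the drug, and the labels do not separate them.

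Fast signalling between neurons is carried by receptor channels built from several subunits. GABA-A receptors pass chloride and inhibit, AMPA, kainate and NMDA receptors pass cations and excite, and nicotinic receptors pass cations in response to acetylcholine. GABA-B, metabotropic glutamate, muscarinic and most serotonin receptors act instead through G proteins and tune release and excitability. Many subunits mark a brain region: Gabra6 and Grin2c are characteristic of cerebellar granule cells, and Chrm4 of the striatum.

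The libraries held 13342177 to 18886822 reads in genes. In 3 of them, ECM 1, ECM 3 and control 4, cerebellar markers were low: the score (mean log2 CPM of 14 markers) was 2.292, 2.193 and 2.648, against 4.048 to 6.958 in the 9 other libraries, and 9 of the 14 markers were below all 9 others. The granule cell marker Cbln3 had 0.356 to 1.57 CPM in those 3 libraries and 32.6 to 983 CPM in the others. In ECM 2, ECM 3 and control 4, genes of high GC content ran low (rank correlation across 13741 genes of -0.319, -0.467 and -0.655, against -0.0437 to 0.537 in the others), and mitochondrial transcripts took 15.8%, 13.7% and 11.1% of reads, against 4.95% to 8.22%. Markers of T and NK cells summed to 24.8 to 52.5 CPM in treated ECM, 116 to 197 CPM in ECM and 4.5 to 7.97 CPM in control, while pan-neuronal marker sums overlapped, with 0 of 9 markers called in ECM against control. Pan-neuronal markers, which define the labelled tissue, summed to at least 6743 CPM in every library.

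Expressed per kilobase of exon, which allows genes to be compared, the GABA-B subunit gene Gabbr1 stood highest of the 67, with 105 ± 7.33 RPKM (CPM per kilobase) in treated ECM, 91.7 ± 9.69 in ECM and 97.0 ± 12 in control (SD, n = 4 each). The AMPA subunit gene Gria1 had 88.6 ± 3.74, 82.7 ± 20.3 and 90 ± 9.07 RPKM in treated ECM, ECM and control. The levels of these genes do not differ from each other beyond their spread in ECM and control. Leading genes of other families, by the mean over 12 libraries, were Grin1 (52.5 RPKM), the shared subunit of all NMDA receptors, Grik5 (32.9), a high-affinity kainate subunit, Grm4 (18.8), Chrm1 (16.5), Grid1 (11.7), Chrnb2 (10.5) and Htr2c (8.70). At the low end, Chrna2 had 0.334 RPKM, Grin3b 0.413, and Chrnb4 0.447.

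**Figure D1:**
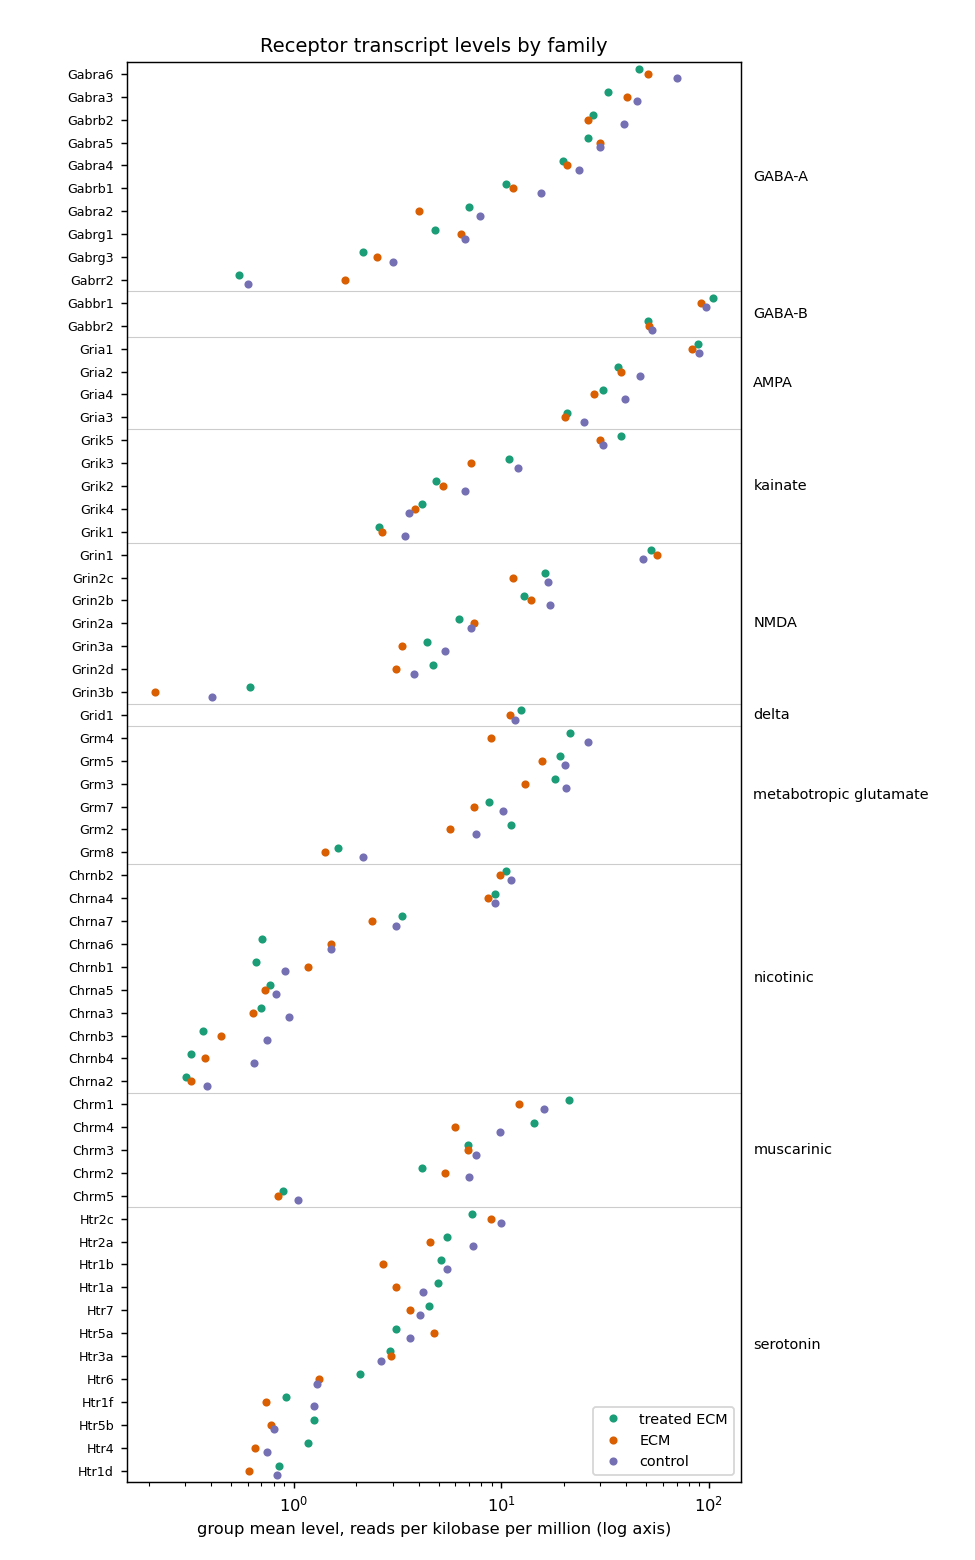
Group mean level of 62 of the 67 receptor transcripts in RPKM (CPM per kilobase of exon), on a log axis, by family, with 1 point each for treated ECM, ECM and control (n = 4 libraries a group). Levels ran from under 1 for genes such as Chrna2, Grin3b and Chrnb4 to 91.7 to 105 for Gabbr1, and group means of most genes lay close together. Gabrr2 was at 1.76 in ECM and under 1 in the other groups.

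ECM against control asks which receptor transcripts differed in diseased brains. Transcripts of the serotonin receptor gene Htr1b, the GABA-A subunit gene Gabra2 and the metabotropic glutamate receptor gene Grm3 were lower in ECM, and those of the GABA rho subunit gene Gabrr2 were higher. These 4 of 67 receptor genes (5.97%) were called, meaning an adjusted p below 0.05 in edgeR's quasi-likelihood test over 14624 genes, where 10.3% of all genes were called (7.01% higher and 3.28% lower). The share of receptor genes called was thus below the background in this fit, and with a score of cerebellar markers as a covariate it was above (23.9%, against 18.5% of all genes). Most estimates were small and negative: 58 of 67 (86.6%) lay below 0, against 52.5% of all genes, with a median log2 fold change of -0.30, against -0.03 for all genes, and 49 lay within 0.5 of 0. The median was -0.15, with 46 of 67 below 0, without ECM 2, and -0.14, with 44 below 0, without control 4. Without control 4, ECM 2 and ECM 3 it was -0.08, with 43 below 0. The median was further from 0 in other fits: -0.40, with 61 below 0, with the cerebellar covariate, and -0.44, with 58 below 0, without control 4, ECM 1 and ECM 3. Libraries of the groups did not overlap for 5 lower and 1 higher receptor gene, where 5.84% and 8.68% of all genes did so.

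Htr1b was higher and Gabrr2 was lower in treated ECM against ECM, the comparison that bears on artesunate treatment. These 2 of 67 (2.99%) compare with 8.38% of all genes called (3.32% higher and 5.06% lower). The median log2 fold change was 0.09, with 28 of 67 below 0, against 0.01 for all genes, and it was -0.04 without ECM 2. It was 0.35 with the cerebellar covariate and 0.41 without control 4, ECM 1 and ECM 3, with 15 of 67 below 0 in each. Receptor genes without overlap between the groups were 7 higher (Gabra2, Grik3, Grin3b, Grm2, Chrm1, Chrm4 and Htr1b) and 1 lower (Gabrr2), where 11.4% and 10.5% of all genes had none. Set against control, treated ECM had 0 of 67 called by edgeR and 0 by DESeq2, where edgeR called 2.04% of all genes (1.98% higher and 0.0547% lower), and 5 had an unadjusted p below 0.05 (7.46%, against 11.4% of all genes). The median was -0.22, against 0.00 for all genes, with 49 of 67 below 0, and without control 4 it was -0.04, with 40 below 0. Receptor genes without overlap were 2 higher (Chrm4 and Htr6) and 5 lower (among them Grik1, Grik2 and Chrm2) in treated ECM, where 10.6% and 8.26% of all genes had none. The comparisons share libraries, so their values for a gene are not independent of each other.

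**Figure D2:**
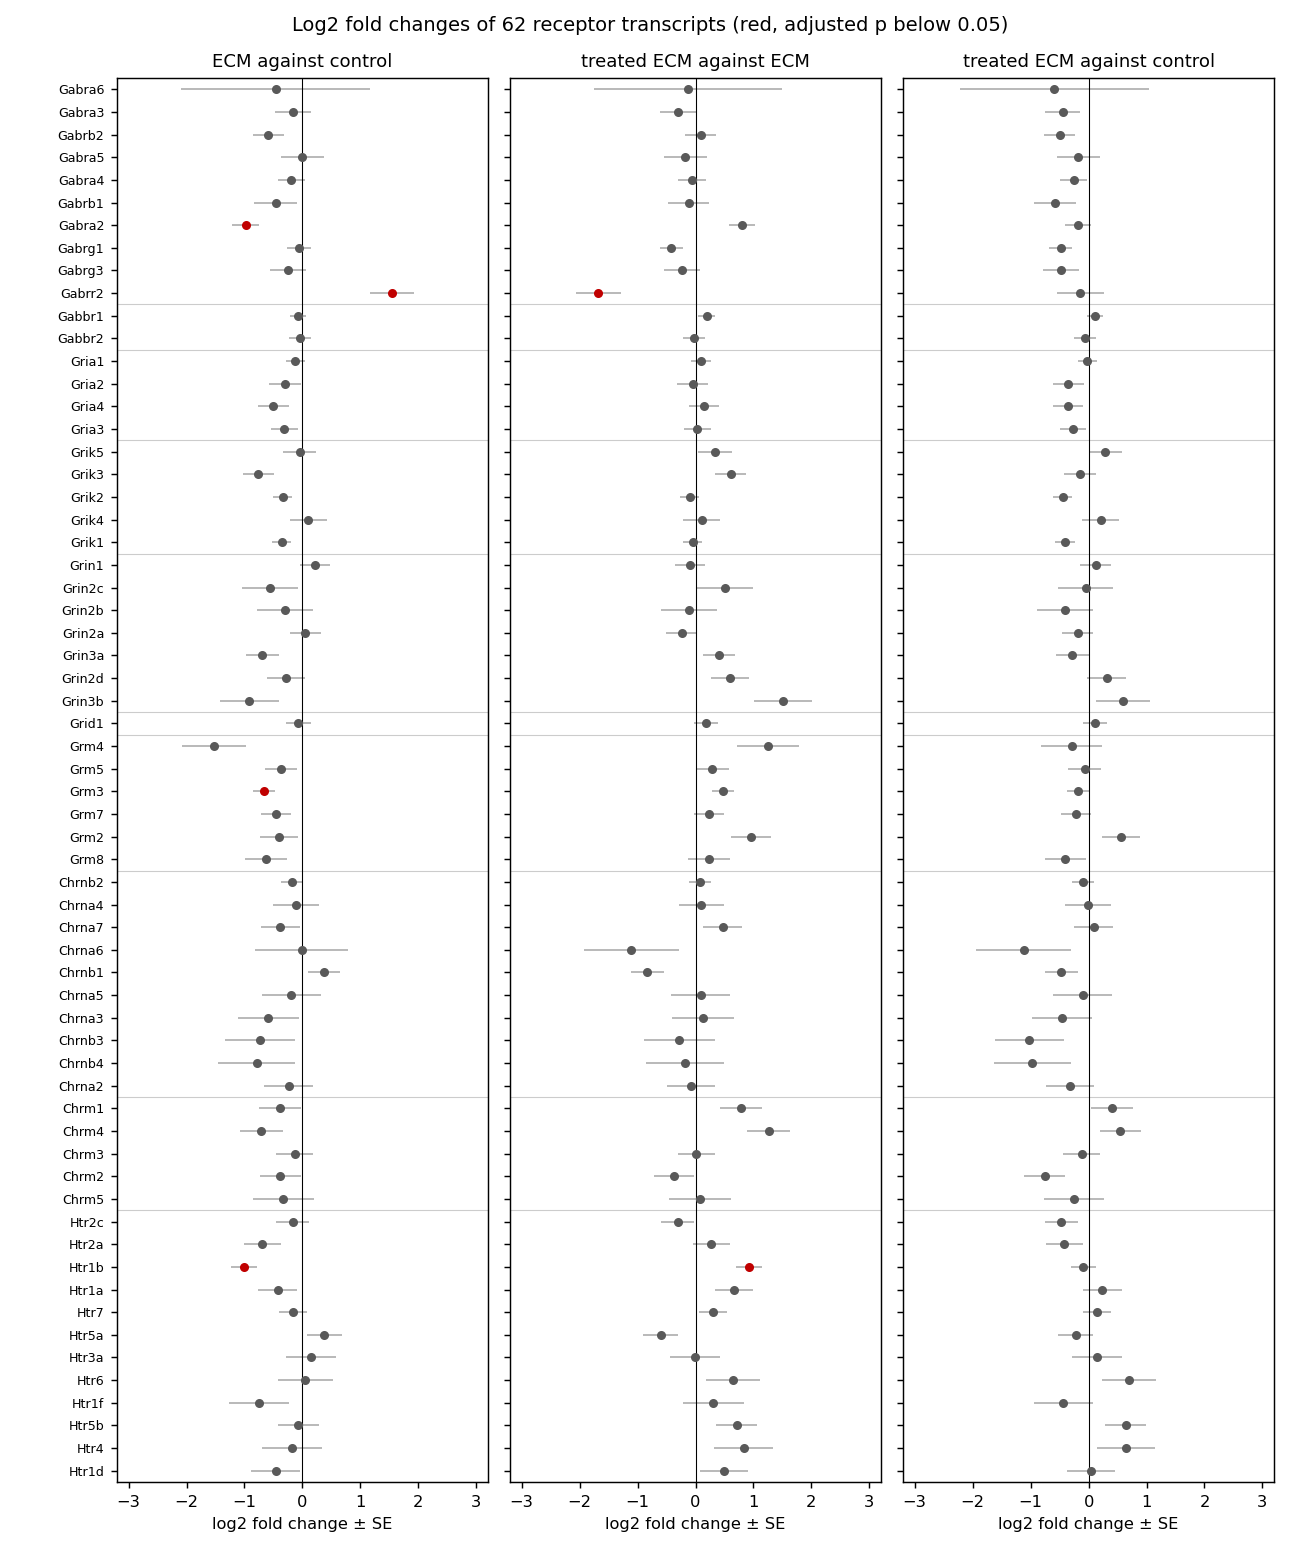
Log2 fold change with its standard error of 62 of the 67 receptor transcripts in the comparisons of ECM with control (left), of treated ECM with ECM (middle) and of treated ECM with control (right), ordered by family and level, with called genes in red (adjusted p below 0.05, edgeR). Red points are Gabra2, Gabrr2, Grm3 and Htr1b in ECM against control and Gabrr2 and Htr1b in treated ECM against ECM, and Gabra6 has the widest error.

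The counts depend on how the cerebellum-poor libraries are handled. With the cerebellar score as a covariate, 16 receptor genes were called in ECM against control, 15 of them lower (23.9%, against 18.5% of all genes), and 10 in treated ECM against ECM (14.9%, against 11.8%). Without control 4, ECM 1 and ECM 3, 8 were called in each of these comparisons (11.9%, against 14.5% and 12.2% of all genes), 8 of them lower in ECM and 7 of them higher in treated ECM. Genes called lower in ECM in both of these fits were Htr1b, Grin3a, Gabra2, Gabrb1, Gabrb2, Grm3 and Grm8. Leaving out ECM 4, control 1 or control 3 gave 2 calls in ECM against control. Leaving out ECM 2 gave 4 calls in treated ECM against ECM, ECM 4 or control 4 gave 5, ECM 1 or treated ECM 1, 2 or 3 gave 1, and treated ECM 4 gave 0. With 1 library left out, 7.24% to 11.5% of all genes were called in ECM against control and 3.73% to 14.3% in treated ECM against ECM. In each of these comparisons the receptor share lay above that of all genes in 1 of 24 alternative fits, the one with the covariate.

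Htr1b (build mm10, chromosome 9, 81628291 to 81633828, minus strand) encodes a Gi-coupled receptor found on axon terminals, where it limits release of serotonin and other transmitters. It had 21.4, 25.3, 25.0 and 25.1 CPM in treated ECM libraries 1 to 4, 8.77, 17.9, 14.1 and 10.3 CPM in ECM libraries 1 to 4, and 23.4, 30.3, 27.9 and 21.4 CPM in control libraries 1 to 4. All 4 ECM libraries lay below every treated ECM and control library. It was 2.02-fold lower in ECM than in control (log2 fold change -1.01 ± 0.22 SE, adjusted p = 0.00766) and 1.90-fold higher in treated ECM than in ECM (0.92 ± 0.22, adjusted p = 0.0200). Treated ECM against control gave -0.09 ± 0.21. The ECM call was kept when any 1 library was left out (adjusted p 0.00139 to 0.0275), while the call in treated ECM against ECM was lost without ECM 1 (0.77, adjusted p = 0.0506) or treated ECM 2, 3 or 4 (adjusted p 0.0555 to 0.0612). Exons of Htr1b overlap D430036J16Rik on the other strand, and the kit is not described as strand-specific. Striatal markers, from a region where Htr1b is abundant, summed to 1081 to 1348 CPM in treated ECM, 356 to 1201 CPM in ECM and 941 to 1467 CPM in control, with 5 of 9 called lower in ECM against control. Their part in the Htr1b result was not tested, and in bulk tissue fewer cells of a type and less RNA per cell cannot be told apart.

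Gabra2 (chromosome 5, 70957597 to 71095849, minus strand) encodes a GABA-A alpha subunit of forebrain neurons. It had 44.1, 54.2, 60.7 and 55.0 CPM in treated ECM libraries 1 to 4, 32.4, 25.9, 40.6 and 24.2 CPM in ECM, and 51.1, 47.4, 52.0 and 91.7 CPM in control. Every ECM library lay below every library of the other groups, and control 4 stood apart on the high side. It was 1.97-fold lower in ECM than in control (log2 fold change -0.98 ± 0.23, adjusted p = 0.0154) and did not pass in treated ECM against ECM (0.80 ± 0.23, adjusted p = 0.0503). Without control 4, the adjusted p of the second comparison was 0.0120, and with the cerebellar covariate 0.00125. This second comparison passed in 10 of 24 alternatives and did not pass in 14. With 1 library left out it did not pass in 10 of 12 fits (adjusted p up to 0.132). Fitted on ECM and control alone, the first call was lost (adjusted p = 0.0621). Treated ECM against control gave -0.18 ± 0.23, and 0.10 ± 0.19 without control 4.

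Grm3 (chromosome 5, 9485541 to 9725170, minus strand) encodes a Gi-coupled glutamate receptor of neurons and astrocytes. It had 53.5, 62.0, 55.8 and 49.4 CPM in treated ECM libraries 1 to 4, 52.1, 27.0, 41.6 and 37.5 CPM in ECM, and 56.9, 55.1, 65.6 and 72.9 CPM in control. ECM libraries lay below all control libraries, while ECM 1 overlapped treated ECM. It was 1.58-fold lower in ECM than in control (log2 fold change -0.66 ± 0.19, adjusted p = 0.0383), and treated ECM against ECM did not pass (0.48 ± 0.19, adjusted p = 0.125). The ECM call was lost in 10 of 12 omissions of 1 library (adjusted p up to 0.0980), so that it was kept only without ECM 1 or control 2. It was also lost without control 4, ECM 2 and ECM 3 together (-0.40, adjusted p = 0.0874). Astrocyte markers summed to 2992 to 3879 CPM in treated ECM, 3858 to 5253 CPM in ECM and 3642 to 5118 CPM in control, with 2 of 6 called higher and 0 lower in ECM against control.

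Gabrr2 (chromosome 4, 33062999 to 33095865, plus strand) encodes a rho subunit of GABA-gated chloride channels, best known from the retina. It had 0.826, 0.418, 2.18 and 1.19 CPM in treated ECM libraries 1 to 4, 3.29, 3.22, 3.97 and 4.32 CPM in ECM, and 1.33, 1.30, 1.37 and 1.07 CPM in control. These levels rest on 6 to 33 reads in treated ECM, 40 to 81 reads in ECM and 15 to 24 reads in control libraries, and the ECM libraries lay above all others. It was 2.91-fold higher in ECM than in control (log2 fold change 1.54 ± 0.38, adjusted p = 0.0202) and 3.2-fold lower in treated ECM than in ECM (-1.68 ± 0.39, adjusted p = 0.0189). The authors' deposited table gives 1.56 (adjusted p = 0.000116) for ECM against control, and their table for treated ECM against ECM gives -1.70 (adjusted p = 0.00204). Leaving out ECM 4 or control 1, 2 or 3 took the first adjusted p to 0.0503 to 0.0520, and leaving out treated ECM 1 or 4 took the second to 0.0673 and 0.0531. The first was also lost without control 4, ECM 1 and ECM 3 (adjusted p = 0.0751) and without control 4, ECM 2 and ECM 3 (adjusted p = 0.0514). Markers of T and NK cells (sums above) and of monocytes were called higher in ECM against control in 6 of 6 and 5 of 5, and monocyte markers summed to 34.4 to 61.7 CPM in treated ECM, 132 to 321 CPM in ECM and 8.33 to 10.2 CPM in control. Their part in the Gabrr2 result was not tested.

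**Figure D3:**
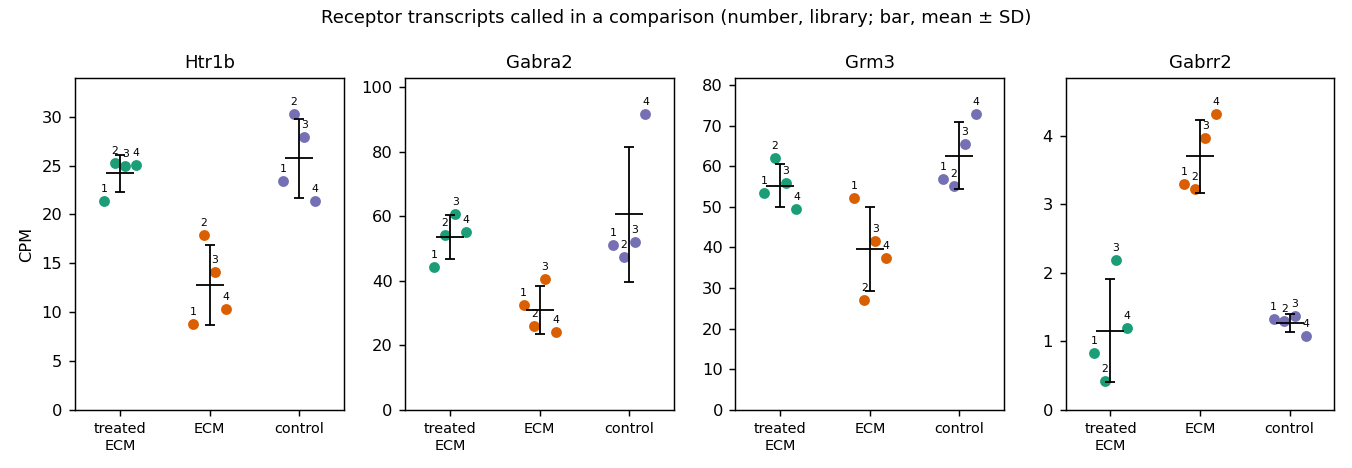
CPM of Htr1b, Gabra2, Grm3 and Gabrr2 in each library (numbers mark the library), with mean and SD per group (n = 4), in treated ECM, ECM and control from left to right. ECM libraries lie below the others for Htr1b and Gabra2 and above them for Gabrr2, and ECM 1 overlaps treated ECM for Grm3.

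The promoter sequences of these 4 genes are shown because they are the receptor genes whose transcripts differed between groups. Each run is 250 bases before to 50 bases after the annotated start, 5′ to 3′ on the gene's strand, from RefSeq on build GRCm38.p6, with GC boxes (GGGCGG on either strand) in capitals. The windows are chr9:81633783-81634082 (minus strand) for Htr1b, chr5:71095800-71096099 (minus) for Gabra2, chr5:9725303-9725602 (minus) for Grm3 and chr4:33062862-33063161 (plus) for Gabrr2.

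Htr1b: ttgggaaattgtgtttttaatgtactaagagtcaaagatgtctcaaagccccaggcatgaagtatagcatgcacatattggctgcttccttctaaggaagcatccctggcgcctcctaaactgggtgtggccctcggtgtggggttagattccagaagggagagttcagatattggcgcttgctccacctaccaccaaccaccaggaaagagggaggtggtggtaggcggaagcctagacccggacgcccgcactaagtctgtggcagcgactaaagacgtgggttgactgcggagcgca

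Gabra2: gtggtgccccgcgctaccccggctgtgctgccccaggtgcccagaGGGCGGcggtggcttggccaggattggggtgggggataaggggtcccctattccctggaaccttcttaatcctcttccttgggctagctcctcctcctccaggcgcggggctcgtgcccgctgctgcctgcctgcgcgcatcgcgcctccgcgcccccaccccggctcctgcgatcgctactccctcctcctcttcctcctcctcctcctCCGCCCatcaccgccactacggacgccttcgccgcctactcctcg

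Grm3: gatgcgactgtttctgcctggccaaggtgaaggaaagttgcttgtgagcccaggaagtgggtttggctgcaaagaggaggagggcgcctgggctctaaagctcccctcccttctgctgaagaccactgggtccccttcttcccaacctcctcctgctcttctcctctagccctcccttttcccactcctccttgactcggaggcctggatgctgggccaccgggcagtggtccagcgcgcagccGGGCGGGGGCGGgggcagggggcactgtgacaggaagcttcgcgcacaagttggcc

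Gabrr2: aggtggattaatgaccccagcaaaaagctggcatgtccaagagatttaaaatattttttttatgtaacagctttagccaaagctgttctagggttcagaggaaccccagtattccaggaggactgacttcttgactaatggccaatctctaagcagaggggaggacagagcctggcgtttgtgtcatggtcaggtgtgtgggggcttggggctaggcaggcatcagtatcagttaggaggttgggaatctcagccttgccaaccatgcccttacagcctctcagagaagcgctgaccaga

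The GC box stands in the windows of Gabra2 and Grm3 and not in those of Htr1b and Gabrr2, where 35.7% of 32851 promoter windows hold it. Their GC contents were 70.0% for Gabra2, 63.7% for Grm3, 53.3% for Htr1b and 49.3% for Gabrr2, against a median of 52.7% over all windows. None of the 4 windows holds, on either strand, an interferon-stimulated response element (GAAA repeated after any 2 bases), which 3.44% of all windows hold. None holds TTCNNNGAA, a gamma-activated sequence (8.30% of all windows), TGACGTCA, a cyclic AMP response element (1.79%), or TATAAA, the core of many promoters (13.6%). Windows were matched for 46 of the 67 genes, as 56 windows, of which 53.6% hold a GC box and 3.57% the interferon-stimulated response element.

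Among GABA-A genes, 12 of 13 estimates in ECM against control and all 13 in treated ECM against control were below 0, where 52.5% and 49.6% of all genes were. The medians were -0.16 and -0.48, though in the second comparison 0 were called. Without control 4, ECM 1 and ECM 3, not all in the second comparison were below 0. Gabra2 then gave 0.10, and Gabrb1 and Gabrb2 gave -0.20 and -0.36, against -0.58 and -0.50 with all libraries. The beta subunit genes Gabrb1 and Gabrb2 gave -0.46 and -0.59 in ECM against control, and exons of Gabrb1 and Gabra4 overlap on opposite strands. Summed over the family, the level was 323 ± 38.7 RPKM in treated ECM, 392 ± 99.2 in ECM and 458 ± 75.6 in control.

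The GABA-B genes, whose products work as a pair, varied little: Gabbr1 differed 1.34-fold between its lowest and highest library and Gabbr2 1.99-fold, and their estimates lay between -0.08 and 0.19 in the 3 comparisons.

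AMPA subunit genes, which carry most fast excitation, had 0 of 4 called, with estimates of -0.12 to -0.50 in ECM against control and -0.05 to 0.15 in treated ECM against ECM. Gria1 had 563, 525, 543 and 511 CPM in treated ECM libraries 1 to 4, 441, 395, 675 and 488 CPM in ECM and 472, 532, 573 and 598 CPM in control, and all groups overlapped. Its share of AMPA RPKM was 50 ± 0.205% in treated ECM, 48.7 ± 5.32% in ECM and 45.1 ± 3.82% in control. Gria2, the subunit that limits calcium entry, reached 1165 CPM in control 4, against 457 to 689.6 CPM in the other controls. Gria4 was 284 CPM in ECM 2 and 133 to 149.6 CPM in the other ECM libraries.

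Among kainate genes, Grik3 was below control in every ECM library. It had 114, 99.7, 91.6 and 85.3 CPM in treated ECM libraries 1 to 4, 69.3, 27.1, 85.2 and 74.6 CPM in ECM and 107, 102, 127 and 97.9 CPM in control, so the groups did not overlap in either comparison with ECM, although treated ECM 4 (85.3 CPM) and ECM 3 (85.2 CPM) nearly met. Neither passed the test (ECM against control -0.76 ± 0.27, adjusted p = 0.0991, and treated ECM against ECM 0.61 ± 0.27, adjusted p = 0.170). It was called lower in ECM against control with GC-content offsets (-0.86, adjusted p = 0.0386), with the cerebellar covariate (-0.89, adjusted p = 0.0466), with the replicate block and offsets, without ECM 2, and without control 4, ECM 2 and ECM 3 (-0.63, adjusted p = 0.00994). The last of these fits also called it higher in treated ECM than in ECM (0.44, adjusted p = 0.0468). Grik5 had 200.3, 195, 215 and 173 CPM in treated ECM, 193, 73.8, 128 and 223 CPM in ECM and 196, 164, 176 and 103 CPM in control, with wide overlap. Grik1 and Grik2 were below every control library in treated ECM (log2 fold changes -0.41 ± 0.17 and -0.45 ± 0.16, adjusted p = 0.394 and 0.298).

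NMDA subunit genes had 0 of 7 called. Grin1 had 515, 488, 574 and 466 CPM in treated ECM libraries 1 to 4, 705, 261, 484 and 739.9 CPM in ECM and 514, 482, 529 and 354 CPM in control, with ECM the most scattered group. Grin3b, a glycine-binding subunit, had 1.93, 1.60, 1.45 and 3.17 CPM in treated ECM, 0.862, 0.967, 0.248 and 0.746 CPM in ECM and 1.67, 1.89, 1.45 and 0.356 CPM in control, on 3 to 48 reads a library. All treated ECM libraries lay above all ECM libraries (log2 fold change 1.51 ± 0.50, adjusted p = 0.0782), and the authors' deposited table gives 1.51 with an adjusted p of 0.0198. Its relative Grin3a gave -0.69 ± 0.28 in ECM against control (adjusted p = 0.160), and passed with the cerebellar covariate and without the 3 cerebellum-poor libraries. Exons of Grin3b overlap Tmem259 on the other strand.

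The GluN2 subunits, which set the kinetics of NMDA receptors, differed by library more than by group. Grin2b had 287, 307, 426 and 259.8 CPM in treated ECM, 364, 69.6, 661 and 290.3 CPM in ECM and 386, 274, 364 and 683 CPM in control. It was lowest in ECM 2 and highest in control 4 and ECM 3. Grin2c had 115, 77.8, 53.4 and 81.3 CPM in treated ECM, 36.1, 77.6, 18.9 and 96.4 CPM in ECM and 78.9, 116, 115 and 29.8 CPM in control, lowest in the 3 cerebellum-poor libraries. The share of Grin2c in GluN2 RPKM was 40.4 ± 10.6% in treated ECM, 34.8 ± 24.4% in ECM and 37.4 ± 17.4% in control.

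**Figure D4:**
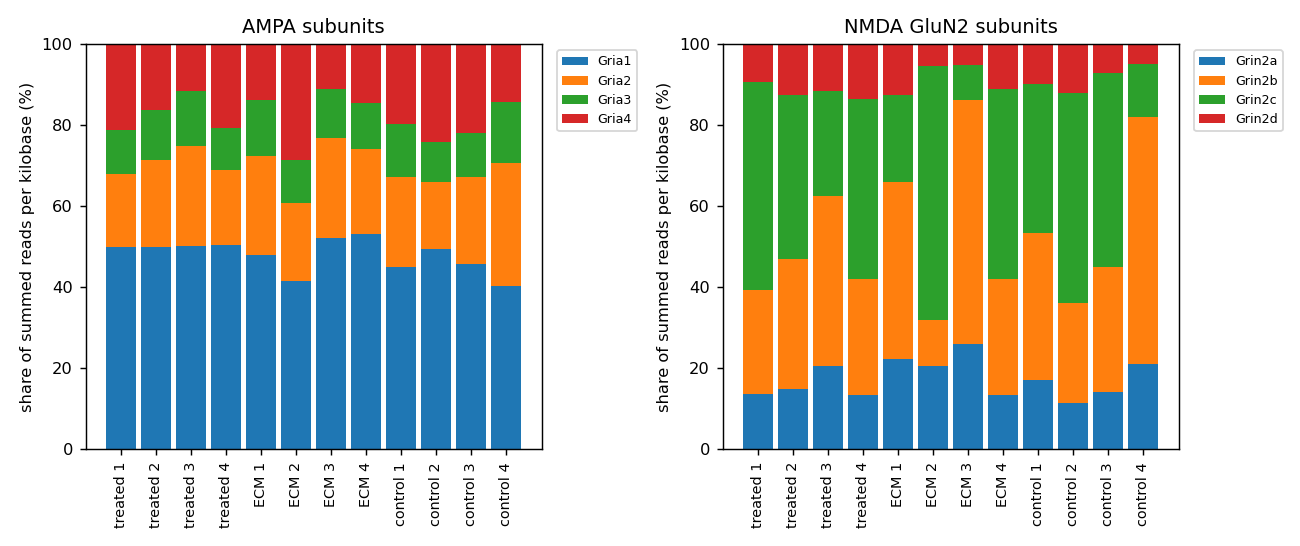
Share of each subunit in the summed RPKM of the AMPA class (left) and the NMDA GluN2 class (right), as a percentage per library, with treated ECM, ECM and control libraries from left to right. Gria1 makes up 40.2% to 53.2% of the AMPA class over the 12 libraries and Gria4 11.1% to 28.6%, highest in ECM 2. In the GluN2 class Grin2b makes up 60.2% of ECM 3 and 60.9% of control 4 and Grin2c 62.5% of ECM 2.

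Receptors of cerebellar neurons ran with the cerebellar markers. Gabra6 had 215, 82.0, 12.4 and 153 CPM in treated ECM libraries 1 to 4, 0.0783, 429.8, 0.0827 and 75.7 CPM in ECM and 158, 250.3, 289 and 0.0712 CPM in control. It had 1 read in each of ECM 1, ECM 3 and control 4, and 188 to 5332 reads in the others. The delta receptor gene Grid1 had 68.3, 75.3, 86.3 and 68.6 CPM in treated ECM, 85.6, 37.6, 73.2 and 66.7 CPM in ECM and 71.6, 74.7, 62.2 and 67 CPM in control, and ECM 2 alone lay low. The receptor genes that lay lower in all cerebellum-poor libraries than in the 9 others were Gabra6, Grin2c and Grm4. Chrm2, Gabra3, Gabrg3, Htr2c and Htr5a lay higher there. These are 4.48% and 7.46% of the 67, against 4.60% and 3.36% of all genes.

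**Figure D5:**
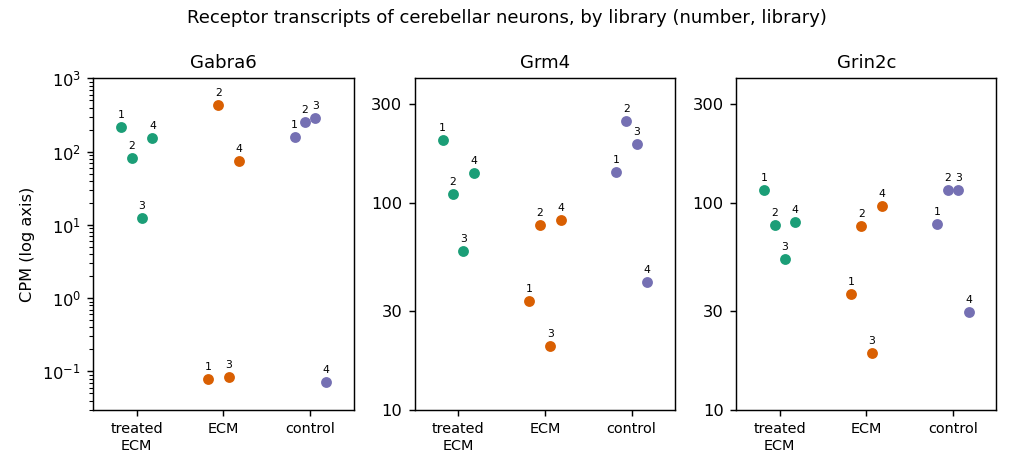
CPM per library, on log axes, of Gabra6 (left, with its own axis range), Grm4 and Grin2c in treated ECM, ECM and control, with the library number at each point. ECM 1, ECM 3 and control 4 lie at the bottom in each panel, and treated ECM 3 is the lowest treated library.

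All 7 metabotropic glutamate genes had estimates below 0 in ECM against control (-0.37 to -1.53) and above 0 in treated ECM against ECM (0.14 to 1.25), although Grm3 alone was called. Of all genes, 52.5% and 49.0% lay below 0 in these comparisons. The summed level was 96.4 ± 9.50 RPKM in treated ECM, 66.8 ± 4.17 in ECM and 106 ± 10.7 in control, and the ECM libraries (61.5 to 70.7) lay below all treated ECM libraries (89.9 to 110.1) and all control libraries (95.1 to 116). No test was made on this sum. Among single genes, 5.84% of all lay lower in ECM than in control without overlap, and 11.4% higher in treated ECM than in ECM. Of the sum, 21.4 ± 9.99 RPKM in treated ECM, 8.98 ± 5.27 in ECM and 26.1 ± 14.7 in control came from Grm4. That gene was among those lower in all cerebellum-poor libraries, and its part in the difference was not tested. Grm4, a presynaptic receptor of cerebellar granule cells, had 202, 111, 58.5 and 139 CPM in treated ECM libraries 1 to 4, 33.5, 78.0, 20.3 and 83.0 CPM in ECM and 141, 248, 193 and 41.3 CPM in control. It was low in ECM 1, ECM 3 and control 4, and ECM overlapped both other groups. It gave -1.53 ± 0.55 in ECM against control (adjusted p = 0.102) and passed without control 4 (-1.84, adjusted p = 0.0227) and with the cerebellar covariate (-0.92, adjusted p = 0.0217). Leaving out control 4 alone keeps the cerebellum-poor ECM 1 and ECM 3. Without all 3 of these libraries Grm4 did not pass (-1.25, adjusted p = 0.0762). Nor did it pass in 11 of 12 omissions of 1 library (adjusted p up to 0.244), or in 18 of 24 alternatives. In the authors' deposited table it stands at -1.52 (adjusted p = 0.0388).

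Grm2, which like Grm3 lowers transmitter release, had 44.7 to 60.0 CPM in treated ECM, 11.8 to 42.7 CPM in ECM and 23.7 to 47.8 CPM in control. Treated ECM lay above ECM without overlap (log2 fold change 0.96 ± 0.34, adjusted p = 0.0923), and an overlapping gene, Gm28111, lies on the other strand. The Gq-coupled receptor Grm5 gave -0.37 ± 0.28 in ECM against control. Grm7 and Grm8 gave -0.46 ± 0.26 and -0.63 ± 0.36.

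Nicotinic genes were among the least abundant, and 0 of 10 were called. Chrnb2, which with Chrna4 forms the main brain receptor, had 98.9, 86.7, 83.6 and 81.8 CPM in treated ECM libraries 1 to 4, 98.6, 52.4, 91.3 and 88.8 CPM in ECM and 93.6, 108, 101 and 73.2 CPM in control. Chrna4 had 40.1 to 63.5 CPM in treated ECM, 11.9 to 62.0 CPM in ECM and 29.7 to 56.8 CPM in control, and Chrna7, which forms receptors of a single subunit type, 13.1 to 18.6, 3.14 to 15.7 and 12.9 to 15.8 CPM in these groups. Groups overlapped for all of these.

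The largest folds in treated ECM against control came from Chrna6, Chrnb3 and Chrnb4, subunits found in few brain nuclei. Chrna6 had 0.441, 3.76, 3.10 and 0.858 CPM in treated ECM, 5.25, 0.403, 7.44 and 4.42 CPM in ECM and 4.61, 5.87, 0.457 and 6.69 CPM in control (treated ECM against control -1.12 ± 0.82, adjusted p = 0.565). Chrnb3 had 1.54, 2.51, 3.90 and 1.39 CPM in treated ECM, 3.92, 0.242, 4.63 and 2.56 CPM in ECM and 3.28, 4.89, 2.66 and 8.04 CPM in control (-1.02 ± 0.60, adjusted p = 0.5). Chrnb4 had 2.97, 0.627, 0.595 and 0.594 CPM in treated ECM, 3.29, 0.645, 0.661 and 0.96 CPM in ECM and 1.05, 2.54, 2.13 and 3.91 CPM in control (-0.97 ± 0.66, adjusted p = 0.540). None of the 3 separated the groups, and each rested on at most 113 reads a library. Without control 4 the estimates for Chrnb3 and Chrnb4 were -0.63 each, and without treated ECM 1 that for Chrnb4 was -1.97 (adjusted p = 0.245). Chrnb1, best known from muscle, gave -0.83 ± 0.29 in treated ECM against ECM (adjusted p = 0.0873).

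Muscarinic genes had 0 of 5 called. Chrm1, the leading Gq-coupled member of the forebrain, had 122, 133, 180.4 and 113 CPM in treated ECM libraries 1 to 4, 97.2, 23.1, 101 and 95.7 CPM in ECM and 141, 80.4, 103 and 91.9 CPM in control, and treated ECM lay above ECM (0.79 ± 0.36, adjusted p = 0.182). Chrm4, a Gi-coupled receptor of striatal projection neurons, had 19.3, 20.7, 23.5 and 19.3 CPM in treated ECM, 11.5, 2.10, 9.09 and 11.7 CPM in ECM and 12.9, 11.7, 16.4 and 15.5 CPM in control. Treated ECM lay above both other groups, and ECM lay at or below the lowest control (11.7 CPM). It gave 1.26 ± 0.37 in treated ECM against ECM (adjusted p = 0.0519) and 0.55 ± 0.36 against control (adjusted p = 0.531). It passed the first comparison without ECM 2 (0.93, adjusted p = 0.0106) and with the cerebellar covariate (1.49, adjusted p = 0.0234). It also passed with DESeq2, without ECM 4, without control 4, and without control 4, ECM 2 and ECM 3. In 18 of 24 alternatives it did not pass, among them GC-content offsets (1.01, adjusted p = 0.0935). Without control 4, ECM 1 and ECM 3 it did not pass either (1.54, adjusted p = 0.0646). Of 12 omissions of 1 library, 9 left it not called (adjusted p up to 0.124). The authors' deposited table gives 1.25 with an adjusted p of 0.0176. Chrm2 had 21.5 to 27.6 CPM in treated ECM, 18.2 to 52.5 CPM in ECM and 30.1 to 76.7 CPM in control, with no overlap between treated ECM and control (-0.76 ± 0.35, adjusted p = 0.437).

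Of the 12 serotonin receptor genes, Htr1b alone was called. Htr2c, abundant in choroid plexus, had 42.0, 82.8, 60.2 and 83.6 CPM in treated ECM libraries 1 to 4, 106, 62.7, 112 and 52.6 CPM in ECM and 86.6, 101, 62.2 and 124 CPM in control, with all groups overlapping. Choroid plexus markers summed to 83.7 to 905 CPM in treated ECM, 24.5 to 398 CPM in ECM and 78.8 to 647 CPM in control. Htr1a, the Gi-coupled autoreceptor of serotonin neurons, had 15.9 to 30.3 CPM in treated ECM, 5.80 to 21.7 CPM in ECM and 14.9 to 23.2 CPM in control (treated ECM against ECM 0.67 ± 0.33, adjusted p = 0.217). The Gq-coupled Htr2a gave -0.69 ± 0.32 in ECM against control (adjusted p = 0.223). Htr3a, the channel-forming member, gave 0.15 ± 0.43, and the Gs-coupled Htr4, Htr6 and Htr7 gave -0.18 ± 0.51, 0.05 ± 0.48 and -0.16 ± 0.24. Htr6 had 4.42 to 5.92 CPM in treated ECM and 1.42 to 3.66 CPM in control, with no overlap (0.70 ± 0.47, adjusted p = 0.537).

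Receptor genes were not spread evenly over the libraries. ECM 2 held the lowest value of all 12 libraries for 40 of 67 (59.7%), against 22.0% of all genes, and control 4 the highest for 26 (38.8%), against 21.4%. The ratio of highest to lowest library had a median of 3.85 and was above 10 for 12 genes. Without control 4, ECM 2 and ECM 3, 8 receptor genes were called in ECM against control (7 lower), 9 in treated ECM against ECM and 1, Chrm4, higher in treated ECM than in control. These are 11.9%, 13.4% and 1.49% of the 67, against 18.7%, 15.4% and 3.17% of all genes. The GC trend and the mitochondrial share moved with these libraries. ECM 2 also had the highest sum of cerebellar markers (5638 CPM, against 637 to 4527 CPM in the others). Its sum of cortex and hippocampus markers was the lowest (366 CPM, against 439.7 to 669.7 CPM in the others). The part of these features in the receptor values was not tested.

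Genes that make, move or anchor these systems were counted beside the receptors, in 5 lists of 89 genes in all, of which 85 were tested. In ECM against control 3 were called, all lower, in treated ECM against ECM 1 higher and 1 lower, and in treated ECM against control 0, where edgeR called 10.3%, 8.38% and 2.04% of all genes. DESeq2 also called 0 in treated ECM against control. The median log2 fold changes were -0.21, 0.16 and -0.13. In ECM against control, handling of glutamate had 1 of 12 called, AMPA and NMDA partners and scaffold 1 of 33, GABA synthesis and anchoring 0 of 20, acetylcholine 1 of 13 and serotonin 0 of 7. Cacng4, an auxiliary subunit of AMPA receptors, had 52.9 ± 3.62 CPM in treated ECM, 37.3 ± 5.51 CPM in ECM and 58.6 ± 6.83 CPM in control, and was called lower in ECM (-0.65 ± 0.14, adjusted p = 0.0102) and higher in treated ECM than in ECM (0.50 ± 0.14, adjusted p = 0.0483). Bche, an acetylcholine-splitting enzyme, had 5.90 ± 0.378, 4.91 ± 1.5 and 9.97 ± 1.20 CPM in treated ECM, ECM and control (ECM against control -1.03 ± 0.24, adjusted p = 0.0128). Slc38a1, a glutamine transporter, was lower in ECM at 266 ± 34.5 CPM, against 378 ± 32.9 CPM in control (-0.51 ± 0.15, adjusted p = 0.0491). Ric3, a chaperone of nicotinic receptors, was lower in treated ECM at 99.1 ± 8.16 CPM, against 171 ± 33.1 CPM in ECM (-0.78 ± 0.16, adjusted p = 0.0119).

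Of the related GABA-A genes left out by the symbol patterns, Gabrd, Gabrq and Gabre were fitted in the same model, and Gabrp (0.0232 CPM) did not pass the filter on low counts. Gabrd had 87.5 ± 20 CPM in treated ECM, 69.3 ± 44.7 CPM in ECM and 86.5 ± 34.4 CPM in control (ECM against control -0.32 ± 0.45, adjusted p = 0.744). Gabrq had 7.13 ± 5.32, 13.1 ± 6.33 and 16.1 ± 4.34 CPM in treated ECM, ECM and control, and Gabre 2.05 ± 1.33, 2.89 ± 0.915 and 4.26 ± 1.58 CPM, with 0 of these called in any comparison. The 11 matching symbols under 1 CPM had 0 to 146 reads each over the 12 libraries.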

How the data were processed

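Brain RNA was sequenced in 12 libraries, 4 in each of 3 groups taken from the labels. Per the submitters' processing notes, Trimmomatic, FastQC, STAR and HTSeq were used with build mm10. Versions and annotation: not given in the sources used here. Whole read counts per gene, with no scaling, stand in the authors' deposited count table. Their comparison tables, per the file headers, give a log2 fold change, a p-value and adjusted p-value, a normalized signal and an FPKM value. The deposited FPKM was used as an alternative level for 5 genes and the deposited signal was not used. In 2212 genes with long names the values were displaced and were put back. In those genes treated ECM 4 differed from the authors' deposited comparison tables in 98 of 107 genes, so they were fitted with 11 libraries. No receptor gene is among them. Because of these rows, the first and last library columns of the deposited table hold other entries beside counts.

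The 3 group means were fitted in 1 quasi-likelihood model with edgeR 4.0.16 (R 4.3.3), after TMM scaling and filterByExpr. Benjamini-Hochberg adjustment ran over all 14624 tested genes, and calls were made below 0.05. CPM values use TMM-scaled library sizes, and RPKM divides them by exon length (GENCODE M21, matched by symbol for 99.5% of genes). Membership used unscaled CPM. DESeq2 1.42.0, other scalings and filters, GC-content offsets, a cerebellar score and omission of libraries were the alternatives. The members and gene lists were chosen with earlier results of these data known. Genes named are those called, the highest per family, the 3 largest folds per comparison, and genes with a library or group standing apart, plus members and relatives added after their values were seen. Some receptor genes are not reported here by name, although counts, medians and family sums include them. Fits were tested on simulated data. Scripts ran in Python 3.11.15 with pandas 2.3.3, numpy 2.4.6 and, for figures, matplotlib 3.10.9.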

Additional observations from a re-analysis of the deposited data

Results flagged for a closer look

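In 13 of 201 sets of 4 libraries (67 genes in 3 groups), 1 library stood far from the other 3 by Dixon's test. That is 6.47%, against 7.83% over all tested genes, and chance gives about 1 in 20. Of the 13, 11 are given here.

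Control 4 was apart in 4 of them. Chrm2, a Gi-coupled muscarinic receptor gene, had 76.7 CPM there and 30.1 to 32.5 CPM in the other controls. Gabra2 had 91.7 CPM, against 47.4 to 52.0 CPM, and Gabrb1 had 363 CPM, against 161 to 174 CPM. Htr6 was low at 1.42 CPM, against 3.39 to 3.66 CPM. Without control 4 the estimate for Gabra2 in ECM against control remained called.

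In ECM 2, Htr1f was low at 0.484 CPM, against 2.19 to 2.48 CPM in the other ECM libraries, and Chrm1 was low at 23.1 CPM, against 95.7 to 101 CPM. Gria4 was high there at 284 CPM, against 133 to 149.6 CPM. In ECM 1, Chrnb4 was high at 3.29 CPM, against 0.645 to 0.96 CPM.

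In treated ECM 1, Htr1b was low at 21.4 CPM, against 25.0 to 25.3 CPM in the other treated libraries. Chrnb4 was high there at 2.97 CPM, against 0.594 to 0.627 CPM. In treated ECM 3, Chrna4 was high at 63.5 CPM, against 40.1 to 42.4 CPM.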

How the results depend on the processing

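Over 24 alternatives, Htr1b was called lower in ECM against control in 24 and Gabra2 in 23, Gabrr2 was called higher in 18, and Grm3 was called lower in 11. The treated ECM against ECM calls of Htr1b held in 20 and those of Gabrr2 in 22. Receptor genes called in ECM against control numbered 4 in the reported fit, 2 with only these groups fitted, 7 with GC-content offsets, 7 with the replicate block and GC-content offsets, 16 with the cerebellar covariate, 8 without control 4, ECM 1 and ECM 3, 8 without control 4, ECM 2 and ECM 3, and 2 to 6 when 1 library was left out. Those in treated ECM against ECM numbered 2, and 4 with GC-content offsets, 4 with the block and offsets, 10 with the covariate, 8 and 9 without those libraries, 7 with DESeq2 and 0 to 5 when 1 library was left out. Those in treated ECM against control numbered 0, 1 without control 4, ECM 2 and ECM 3, and 0 when 1 library was left out. The share of all genes called moved with these counts, over 6.04% to 18.7% in ECM against control, 3.69% to 15.4% in treated ECM against ECM and 1.5% to 3.17% in treated ECM against control. In ECM against control it was 6.04% with only these groups, 18.0% with offsets, 13.8% with the block and offsets and 18.5% with the covariate. In treated ECM against ECM it was 14.3% with offsets, 9.63% with the block and offsets, 11.8% with the covariate and 13.6% with DESeq2. Companion genes numbered 3, 2 and 0 in these comparisons. In ECM against control they numbered 0 with only these groups, 10 with offsets, 9 with the block and offsets, 13 with the covariate, 8 and 9 without those libraries, and 2 to 6 when 1 library was left out. In treated ECM against ECM they numbered 1 with RLE scaling, with no filter, with only these groups and with offsets, 0 with the replicate block, 5 with the covariate and 1 to 4 when 1 library was left out. In treated ECM against control they numbered 2 with only these groups and 3 without control 4, ECM 2 and ECM 3. The omissions of 3 libraries were chosen after seeing the data. The cause of these shifts was not tested.

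In treated ECM against control, Gabra2 turned to 0.12 with GC-content offsets and with the block and offsets, to 0.10 without control replicate 4 and without control 4, ECM 1 and ECM 3, and to 0.09 without control 4, ECM 2 and ECM 3, and Gabrr2 turned to 0.13 without treated ECM replicate 2. When 1 library was left out, Gabra2 ran from -0.28 to 0.10 and Gabrr2 from -0.64 to 0.13. None of these was called. The replicate numbers share no stated origin, and deviations of same-numbered libraries correlated from -0.614 to 0.30. With the replicate block, 3, 2 and 0 receptor genes were called in the 3 comparisons, and the lost call was Grm3 (-0.68, adjusted p = 0.0877). At 13342177 to 18886822 reads a library, genes near 1 CPM such as Gabrr2 and Grin3b rest on few reads.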
